A study of Rattus norvegicus with 4 samples.

Results

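Thyroid hormone signalling was followed in the postnatal carotid body (CB) through 8 genes chosen by symbol: the nuclear receptors Thra and Thrb, the deiodinases Dio1, Dio2 and Dio3, the transporter Slco1c1 and the target genes Hr and Thrsp. All 8 were among the 32883 genes of the deposited table, each with a single entry and whole-number counts, and 5 of them were among the 13843 genes tested. RNA came from whole CBs of Sprague Dawley rats, with 2 libraries from neonates (day 5) and 2 from adults (day 21), and no treatment or genetic change was applied to either age. Each library pooled the CBs of 6 pups or 3 adults according to the series description. Larger pools and more replicates per age are given in the methods, and animals of both sexes were used without being told apart.

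Thyroid hormone is released mostly as thyroxine and is converted in tissues to triiodothyronine, the form that binds the receptors. Dio2 makes this conversion inside cells, Dio3 inactivates both forms, and Dio1 acts mainly in liver, kidney and thyroid. The receptors sit on DNA with a retinoid X receptor (Rxr) as partner, hold corepressors while empty and exchange them for coactivators once the hormone binds. In the rat, circulating hormone rises over the first weeks after birth, and the brain, heart, fat and skin mature under its influence. Hr encodes hairless, a receptor corepressor that is itself induced by the hormone in brain and skin, and Thrsp encodes Spot14, a hormone-induced protein of fat synthesis.

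Of the 8 genes, Thrb, Hr and Thrsp were lower in neonates than in adults, by 4.14-fold, 2.26-fold and 21.7-fold. Thra and Slco1c1 were tested and not called. The 3 deiodinases stayed below 1 CPM in every library and were not tested. Among the other target genes listed, Klf9 was 9.06-fold lower in neonates. All fold changes compare neonates with adults after TMM scaling, which corrects each library for a few very abundant genes, and come from edgeR's quasi-likelihood test. A gene was called when its p, adjusted by the method of Benjamini and Hochberg, was under 0.05. Of the genes tested 62.3% were called, so a call alone is common, and 31.1% were lower and 31.2% higher in neonates. With at least a 2-fold change as well, 13.2% were lower and 7.68% higher. SE stands for the standard error of a log2 fold change. Levels are given as CPM, the counts scaled to an equal total in each library, without TMM scaling and not per length, so they compare a gene between libraries but not one gene with another. CPM of the libraries did not overlap between ages for 83.1% of all genes tested.

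**Figure D1:**
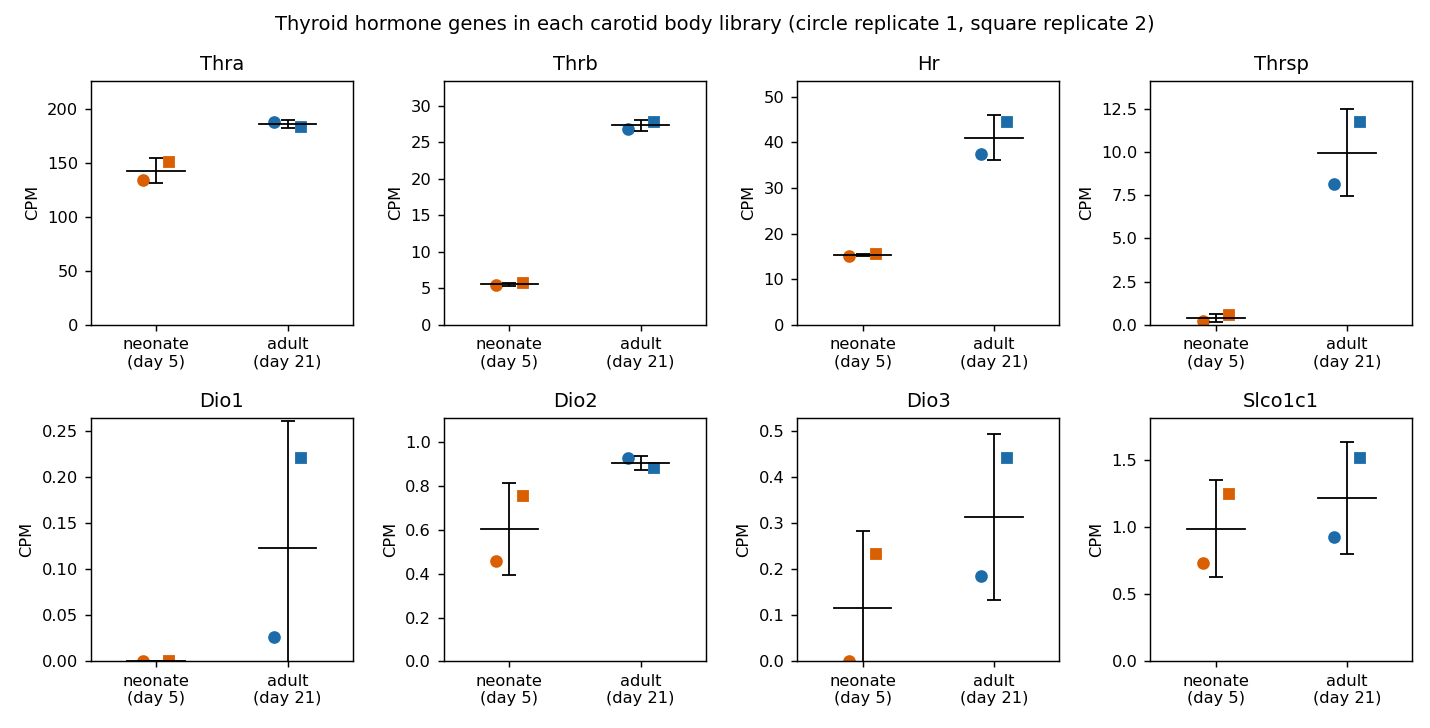
Level of each of the 8 genes in CPM of the library total (vertical axis, a separate linear scale from 0 in each panel) in neonatal (orange) and adult (blue) libraries, with circles for replicate 1, squares for replicate 2 and bars for the mean and SD of the 2 libraries. Thrb, Hr and Thrsp stand apart between ages, while no deiodinase reaches 1 CPM in any library.

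Totals per library ran from 36286191 to 39476110 estimated counts, and 3 counts, taken as the floor of detection, were 0.0760 to 0.0827 CPM. This floor covers counting error only. Glomus cell markers were present in every library, with Th, the rate-limiting enzyme of dopamine synthesis, between 781 and 1517 CPM. Of the 9 thyroid follicle markers, Nkx2-1 and Foxe1 had 0 counts in every library, Tg had at most 30 counts, and the summed level of the list was 2.25 and 3.66 CPM in neonates and 6.43 and 8.86 CPM in adults, with Duox2 the main contributor in the adults. Parathyroid markers were found in the neonatal libraries, where Pth was at 1595 and 194 CPM against 0 counts in both adult libraries. Red blood cell markers (4 of 4 tested) and sympathetic neuron markers (5 of 5 tested) were called higher in neonates too, against 31.2% of all genes tested. The parts of these other tissues and cells in the results below were not tested. For members and pathway genes named below, a call lost without the library richest in Pth, neonate replicate 1, is stated. Counts of called genes come from all libraries together.

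The upstream sequences of the receptors and of the targets that differed most are shown because they are the stretches through which these genes are transcribed. Of the 8 genes, 6 had an entry among the RefSeq promoters of the GRCr8 assembly (Thra, Thrb, Dio1, Dio2, Dio3 and Thrsp), each covering 250 bases before the transcription start and 50 after it. Rat counts were made on Rnor_6.0, so these positions do not apply to the deposited table. The first Thra entry (chr10:84197891-84198190, plus strand), the Thrb entry (chr15:10461397-10461696, minus strand), the Thrsp entry (chr1:161138915-161139214, minus strand) and the Klf9 entry (chr1:230126396-230126695, plus strand) read as follows, with capitals marking matches, on either strand, to the receptor core AGGTCA or its variants GGGTCA and AGGACA, to the GC box GGGCGG, to the CCAAT box or to the TATA box TATAAA.
Thra: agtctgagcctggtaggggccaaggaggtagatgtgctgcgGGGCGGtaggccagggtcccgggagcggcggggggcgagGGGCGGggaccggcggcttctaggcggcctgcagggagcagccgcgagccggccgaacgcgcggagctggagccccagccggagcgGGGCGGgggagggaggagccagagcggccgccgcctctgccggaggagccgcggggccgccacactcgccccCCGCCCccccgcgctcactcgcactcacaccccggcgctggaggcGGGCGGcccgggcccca
Thrb: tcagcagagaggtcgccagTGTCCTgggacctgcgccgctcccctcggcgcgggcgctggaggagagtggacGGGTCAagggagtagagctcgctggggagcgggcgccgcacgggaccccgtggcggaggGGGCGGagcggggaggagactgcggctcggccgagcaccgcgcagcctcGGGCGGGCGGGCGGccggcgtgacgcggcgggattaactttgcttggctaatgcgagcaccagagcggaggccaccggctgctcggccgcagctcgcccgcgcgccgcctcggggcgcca
Thrsp: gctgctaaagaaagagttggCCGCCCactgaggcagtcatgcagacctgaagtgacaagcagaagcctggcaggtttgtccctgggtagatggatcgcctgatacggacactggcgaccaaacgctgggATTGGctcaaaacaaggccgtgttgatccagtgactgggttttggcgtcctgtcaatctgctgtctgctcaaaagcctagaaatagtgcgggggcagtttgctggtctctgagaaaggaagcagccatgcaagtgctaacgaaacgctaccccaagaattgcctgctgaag
Klf9: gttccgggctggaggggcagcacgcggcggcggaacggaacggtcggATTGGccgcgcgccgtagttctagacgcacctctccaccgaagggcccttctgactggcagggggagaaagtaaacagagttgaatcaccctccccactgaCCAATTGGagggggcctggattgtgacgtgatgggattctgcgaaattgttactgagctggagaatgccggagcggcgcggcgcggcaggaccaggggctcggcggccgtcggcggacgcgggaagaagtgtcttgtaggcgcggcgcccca

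AGGTCA is the core that receptors of this family bind best, and GGGTCA and AGGACA are variants of it by a single base. AGGTCA occurred in 16.2% of the 33469 promoters of the table and in none of the 6 matched genes or Klf9. GGGTCA, in 13.8% of promoters, was matched once in Thrb, 178 bases before the start. AGGACA, in 20.4%, was matched once in Thrb, once in Dio2, in 2 places in Dio1 and once in the second Thra entry. GC boxes (GGGCGG, in 33.1% of promoters) were matched 5 times in the first Thra entry, 4 times in Thrb with 3 of these overlapping each other, 4 times in Dio3 and once in Thrsp. Klf9 held none of these and had CCAAT, found in 37.5% of promoters, at 3 places, with 2 of them overlapping. TATAAA, in 14.2%, was matched in Dio2 and Dio3 only, 31 bases before the start in Dio3. These matches describe the letters of a short window and identify no binding site.

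Thrb, the receptor that carries hormone feedback in the pituitary and much of the response of liver and sensory organs, was the receptor gene that differed between ages. It was at 5.42 and 5.69 CPM in the neonatal libraries and at 26.8 and 27.8 CPM in the adult libraries. The groups lay far apart, and within an age the libraries were almost level. The log2 fold change was -2.05 (SE 0.13, adjusted p = 6.0e-06 in edgeR). Only 3.19% of all genes tested were called at 2 or more log2 units lower in neonates. Whole tissue was sequenced, so fewer cells of a type and less RNA per cell cannot be told apart here or in any result that follows.

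Thra, the widely expressed receptor of heart, brain and bone, was at 135 and 151 CPM in neonates and at 188 and 183 CPM in adults. Every adult library was above both neonatal ones on this scale. After TMM scaling the log2 fold change was -0.14 (SE 0.078), which was not called (adjusted p = 0.16 in edgeR). Scaled to library size alone, it was -0.38 and was called (adjusted p = 0.0049 in edgeR), while the median of all genes tested moved from -0.0029 to -0.25 under that scaling. Over all alternatives its adjusted p in edgeR, DESeq2 or limma-voom ran from 0.0049 to 0.59. The end of Thra overlaps Nr1d1, a clock repressor transcribed from the opposite strand. Whether counting used strand is not given in the sources used here, so reads from the shared stretch cannot be assigned with certainty. Nr1d1 itself was lower in neonates (25.2 and 35.99 CPM against 70.7 and 53.3 CPM, log2 fold change -0.78, SE 0.17, adjusted p = 0.0039 in edgeR).

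The balance between the receptor genes was compared within each library, where depth and scaling cancel. Per Thra count there were 0.0403 and 0.0377 Thrb counts in neonates and 0.142 and 0.152 in adults. The log2 ratio was -4.68 ± 0.069 (SD, n = 2) in neonates and -2.77 ± 0.068 (SD, n = 2) in adults, a shift of 1.92 or 3.77-fold toward Thrb in adults. The libraries of an age differed far less than the ages did. With 2 libraries against 2, the two-sided exact permutation p was 0.333, which is the smallest this design allows. The ratio is of counts and not per length, so its size says nothing of which receptor is the more abundant.

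Hr was at 15.1 and 15.4 CPM in neonates and at 37.5 and 44.5 CPM in adults. The ages did not overlap, and the adult libraries differed from each other more than the neonatal libraries did. The log2 fold change was -1.18 (SE 0.11, adjusted p = 3.5e-05 in edgeR). Of the markers of stratified epithelium, the tissue of skin, Krt5, Krt14 and Krt15 had 0 counts in both adult libraries and together 2.58 and 0.182 CPM in the neonatal libraries, and the fourth marker listed, Trp63, was not found by symbol. The part of such tissue in the Hr result was not tested.

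Thrsp had 9 and 21 counts in the neonatal libraries and 309 and 427 in the adult libraries, or 0.228 and 0.545 CPM against 8.18 and 11.8 CPM. It passed the filter on low counts through the adult libraries alone. The log2 fold change was -4.44 (SE 0.40, adjusted p = 2.9e-05 in edgeR), and 35 of the genes tested had a lower one. Without neonate replicate 1 it was -3.95 and without neonate replicate 2 it was -5.14, both called, so the size of the fold rests on few neonatal reads.

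Fat is among the tissues that make Thrsp, and some fat cell genes moved with it. Of the 6 adipocyte markers, Adipoq (adiponectin), Plin1 (lipid droplet coat) and Cidec (lipid droplet fusion) were lower in neonates, with log2 fold changes of -2.51, -2.30 and -1.95. Cidec, at 0.811 and 0.779 CPM in neonates, passed the filter on low counts through the adult libraries alone, as Thrsp did. Adipoq was at 2.15 and 1.84 CPM in neonates and at 12.6 and 14.4 CPM in adults. Lep, the fat hormone leptin, had 0 counts in both neonatal libraries and 20 and 25 counts in the adult libraries, too few to be tested. Fabp4, a fatty acid carrier shared with endothelium and macrophages, went the other way (log2 fold change 0.51), a call lost with library size alone (0.27), without neonate replicate 2 (0.30) and without adult replicate 1 (0.29). Cfd was not called (0.11). Because Fabp4 has most of the reads, the summed level of the list overlapped between ages, at 135 and 180 CPM in neonates and 137 and 187 CPM in adults. Brown fat markers were low and not called, with Ucp1 at 1.66 and 1.88 CPM in neonates and 0.821 and 4.42 CPM in adults.

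The counts of Thrsp and of the fat cell genes Adipoq and Plin1 were also set side by side within each library, a comparison that was not planned. Both genes were themselves lower in neonates. No ratio was computed to Cfd or Fabp4, markers that were not lower, so the sizes below depend on this choice. Per Adipoq count there were 0.106 and 0.296 Thrsp counts in neonates and 0.651 and 0.816 in adults, a 4.12-fold difference of the mean ratios on the log scale. This was 2.46-fold without neonate replicate 1 and 6.88-fold without neonate replicate 2, omissions that were added after the data were seen. Against Plin1 the ratios were 0.130 and 0.162 in neonates and 0.822 and 0.590 in adults, a 4.80-fold difference, and 4.06-fold to 5.66-fold with 1 library left out. In both comparisons the ages did not overlap, and the two-sided exact permutation p was 0.333, the smallest possible with 2 libraries against 2. The part of fat tissue in the Thrsp result was not tested.

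**Figure D2:**
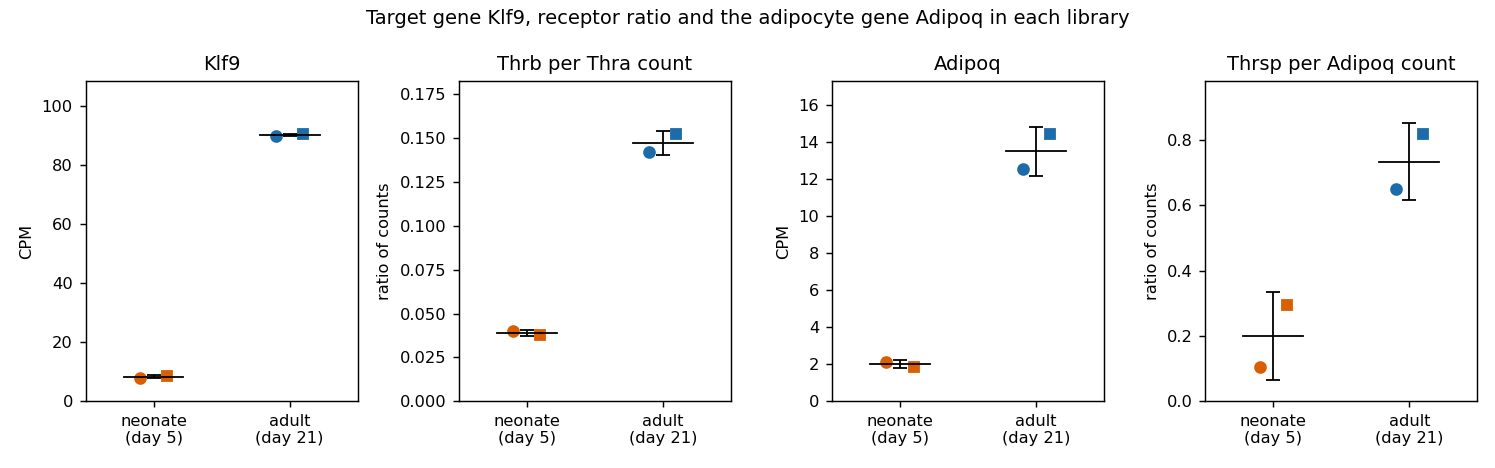
Klf9 and Adipoq levels in CPM and the count ratios of Thrb to Thra and of Thrsp to Adipoq (vertical axes, linear from 0) in neonatal (orange) and adult (blue) libraries, with circles for replicate 1, squares for replicate 2 and bars for the mean and SD of 2 libraries. All 4 quantities are higher in both adult libraries than in both neonatal libraries.

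The deiodinases gave few reads at either age. Dio2, the activating enzyme, had 18 and 29 counts in neonates and 35 and 32 in adults, or 0.456 and 0.753 CPM against 0.926 and 0.882 CPM. In a fit without the filter on low counts its log2 fold change was -0.37 (SE 0.55, adjusted p = 0.61 in edgeR), so that 2 standard errors covered more than a 2-fold change at this depth. The adult libraries were both above the neonatal ones, by few reads. Dio3, the inactivating enzyme of placenta and fetal tissues and an imprinted gene, had 0 and 9 counts in neonates and 7 and 16 in adults, and the ages overlapped. The same fit gave it -1.20 with a standard error of 1.37 (adjusted p = 0.52 in edgeR). Dio1 had 0 counts in both neonatal libraries, which allows a level of up to 0.0760 and 0.0779 CPM, and 1 and 8 counts in the adult libraries, so whatever signal there was came from adult replicate 2.

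Slco1c1, a thyroxine carrier of the vessels of the brain, was at 0.735 and 1.25 CPM in neonates and at 0.926 and 1.52 CPM in adults. The ages overlapped, and the second replicate was the higher one at each age. Its log2 fold change was -0.059 with a standard error of 0.44 (adjusted p = 0.92 in edgeR), and it was 0.26 without neonate replicate 1 and not called there either. Endothelial markers were plentiful in all libraries, with a summed level of 584 to 775 CPM over the 4 of 5 that were found.

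The rest of the pathway was taken from 73 further genes in lists by role, of which 69 were found by symbol and 60 tested. Of these 60, 28 were called lower and 14 higher in neonates, against 31.1% lower and 31.2% higher of all genes tested. With at least a 2-fold change 16 were lower and 2 higher, against 13.2% and 7.68% of all genes tested. The median log2 fold change of the 60 was -0.19, against -0.0029 for all genes tested. Scaled to library size alone, 33 of the pathway genes were called lower and 8 higher. The share called higher went from 33.3% to 19.5% of the pathway calls. Over all genes tested it fell likewise, from 50.1% to 30.1% of the calls.

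**Figure D3:**
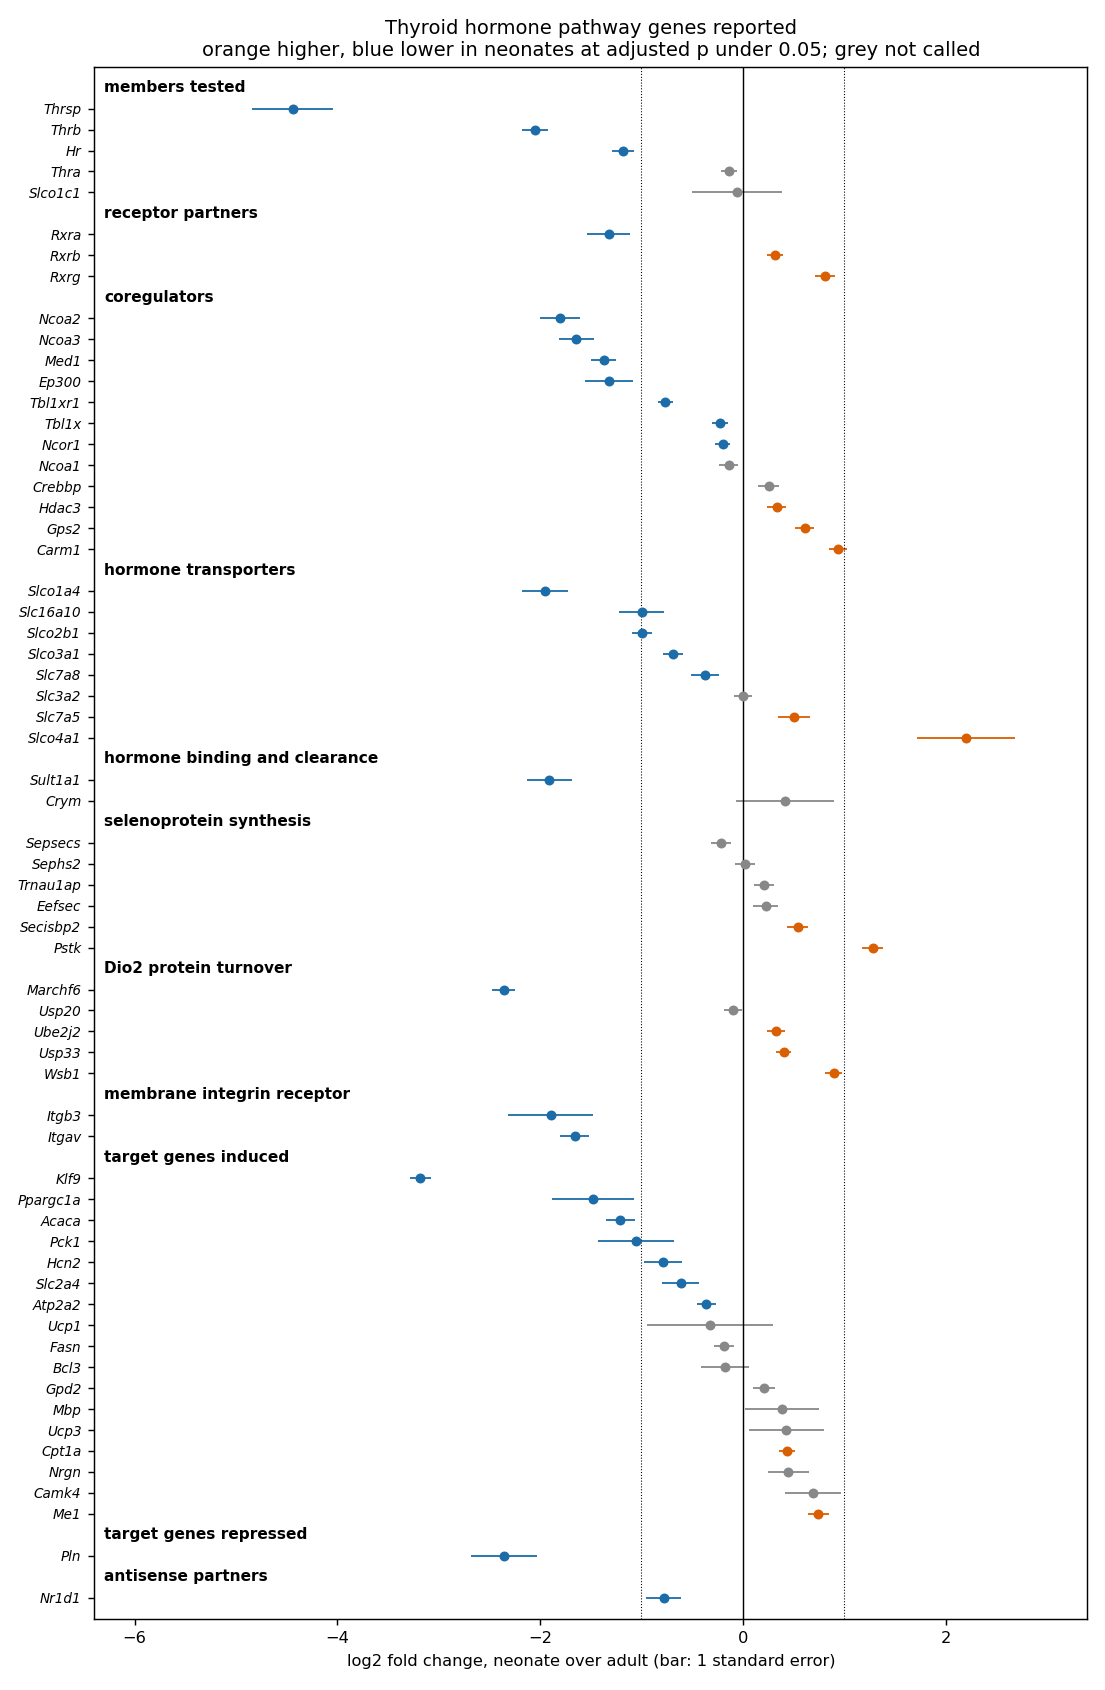
Log2 fold change of neonates over adults with 1 standard error (horizontal axis) for the members tested and the pathway genes reported here, grouped by role, in orange where called higher in neonates, in blue where called lower and in grey where not called. Dotted lines mark a 2-fold change, and Thrsp, Thrb, Klf9, Marchf6 and Pln lie more than 2 log2 units below 0 and Slco4a1 above it.

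Hormone transporters were mostly lower in neonates, with 6 of 9 tested called lower and 2 higher. Of all genes tested, 31.1% were called lower and 31.2% higher. The organic anion carrier Slco1a4 (3.32 and 3.25 CPM against 12.4 and 17.7 CPM) was at -1.95 and the related Slco2b1 at -0.99. Slc16a10 (Mct10), an aromatic amino acid and hormone carrier, was at -0.999 and Slco3a1 at -0.69. Slco4a1 went the other way with a log2 fold change of 2.20 (SE 0.48). It was at 1.60 and 1.66 CPM in neonates against 0.582 and 0.248 CPM in adults, with 63 and 64 counts against 22 and 9. It passed the filter on low counts through the neonatal libraries alone. Amino acid carriers that also take up the hormone differed less. Slc7a5 was at 0.51 and Slc7a8 at -0.37, and neither call was stable. Slc7a5 was at 0.27 (adjusted p = 0.17 in edgeR) without adult replicate 2, and its call was also lost without neonate replicate 2 and with library size alone. Slc7a8 was at -0.13 (adjusted p = 0.29 in edgeR) without adult replicate 1, and its call was also lost without either neonatal library and in limma-voom. Their shared heavy chain Slc3a2 was not called (0.0012).

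The 3 retinoid X receptors did not move together. Rxra was at 4.26 and 4.41 CPM in neonates and at 10.96 and 14.8 CPM in adults, or a log2 change of -1.32 (SE 0.21, adjusted p = 0.00068 in edgeR). Rxrg, the form of muscle and brain, was higher in neonates, at 51.4 and 57.0 CPM against 34.2 and 39.2 CPM, or a log2 change of 0.81 (SE 0.10, adjusted p = 0.00015 in edgeR). Rxrb was at 0.32, a call that was lost when libraries were scaled to their size alone (0.075) and without adult replicate 1 (adjusted p = 0.052 in edgeR).

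Among 13 coregulators, 7 were called lower and 3 higher in neonates, against 31.1% lower and 31.2% higher of all genes tested. Of the 7, Tbl1x (-0.23) lost its call without neonate replicate 1 (-0.17) and without adult replicate 1 (-0.22). The 4 past 2-fold were the coactivators Ncoa2 (-1.80) and Ncoa3 (-1.64), the Mediator subunit Med1 (-1.37), through which the receptors reach the transcription machinery, and the acetyltransferase Ep300 (-1.32). Ncoa2 was at 8.79 and 5.64 CPM in neonates and at 28.5 and 31.4 CPM in adults, and Med1 at 13.1 and 14.9 CPM against 38.4 and 47.4 CPM. None of the 4 overlapped between ages, as was so for 83.1% of all genes tested. Ncoa1, of the same family, was not called (-0.14), nor was the acetyltransferase Crebbp, the close relative of Ep300 (0.25). The corepressor Ncor1 was only just called at -0.20, losing the call in DESeq2, in limma-voom and without adult replicate 1 or either neonatal library. Of the corepressor complex around it, Tbl1xr1 was lower in neonates (-0.77), and Gps2 (0.61) and the deacetylase Hdac3 (0.33) were higher, Hdac3 not without adult replicate 2 (0.20) nor when scaled to library size alone (0.089). Carm1, a methyltransferase of the coactivator complex, was higher in neonates at 0.94 (100.2 and 114 CPM against 68.4 and 63.8 CPM).

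Deiodinases are selenoproteins, and their messages need a dedicated set of factors to read a stop codon as selenocysteine. Of the 6 such factors tested, 2 were higher in neonates and none was called lower. Of all genes tested 31.2% were called higher and 31.1% lower, so 2 of 6 is near the common share. Pstk, the kinase that prepares the selenocysteine tRNA, was at 33.2 and 37.6 CPM in neonates and at 16.8 and 17.7 CPM in adults, or a log2 change of 1.28 (SE 0.10, adjusted p = 1.5e-05 in edgeR). Secisbp2, which binds the selenocysteine element of the message, was at 0.54.

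Dio2 protein is short-lived and is marked for destruction by the ubiquitin ligases Wsb1 and Marchf6 (Teb4). Marchf6 was at 7.40 and 6.80 CPM in neonates and at 42.5 and 44.1 CPM in adults, or a log2 change of -2.36 (SE 0.11, adjusted p = 1.9e-06 in edgeR). Wsb1 went the other way, at 208 and 217 CPM in neonates and at 126 and 145 CPM in adults, or a log2 change of 0.90. The deubiquitinase Usp33, which rescues Dio2, was at 0.41, and scaled to library size alone it was not called (0.16). Usp20, which does the same, was not called (-0.099).

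Clearance and extracellular handling gave fewer genes. Sult1a1, a sulfotransferase whose substrates include iodothyronines, was at 16.9 and 32.2 CPM in neonates and at 104.5 and 112 CPM in adults, or a log2 change of -1.91 (SE 0.22, adjusted p = 0.00011 in edgeR). Crym, a cytosolic hormone-binding protein, was not called (0.41, SE 0.48). The plasma carriers Ttr, Serpina7 and Alb and the iodide-recycling enzyme Iyd stayed below 1 CPM in every library, and Serpina7 had 0 counts throughout. Both chains of the integrin that binds thyroxine at the cell surface were lower in neonates, Itgav at -1.66 and Itgb3 at -1.90, the latter at 1.47 and 1.01 CPM against 3.47 and 7.58 CPM.

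Genes induced by the hormone in other tissues did not move as a block. Of 18 tested, 8 were called lower in neonates, 2 higher and 8 were not called. The shares over all genes tested were 31.1% lower and 31.2% higher. Klf9, a transcription factor induced directly by the receptors in brain and many other tissues, was at 8.03 and 8.78 CPM in neonates and at 90.1 and 90.5 CPM in adults. Libraries of an age were nearly identical, and the log2 fold change was -3.18 (SE 0.099, adjusted p = 1.1e-06 in edgeR), with 85 of the genes tested lower on that scale. Klf9 is also induced by glucocorticoids, and its level does not identify the hormone.

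Among genes of fat and energy metabolism in that list, the directions were mixed. Acaca, the first step of fatty acid synthesis, was at 8.31 and 10.2 CPM in neonates and at 23.7 and 26.8 CPM in adults (log2 fold change -1.21). Fasn, the next enzyme, was not called (-0.19), and Me1, which supplies NADPH to it, was higher in neonates (0.75). The regulator of mitochondrial genes Ppargc1a was at 0.532 and 0.519 CPM in neonates and at 1.51 and 1.98 CPM in adults (-1.48). It passed the filter on low counts through the adult libraries alone. Pck1 was at -1.05, a call lost without adult replicate 2 (-0.57) and without neonate replicate 2 (-0.95). Cpt1a, the entry to fatty acid oxidation, was higher in neonates (0.44), though not when scaled to library size alone (0.19).

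Genes of muscle and nerve completed the list. The pacemaker channel Hcn2 was at -0.79, a call lost without adult replicate 1 (-0.66, adjusted p = 0.073 in edgeR), and the calcium pump Atp2a2 was at -0.36, lost without neonate replicate 1 (-0.26, adjusted p = 0.068 in edgeR). Slc2a4 was at -0.61, with its call lost without neonate replicate 2, adult replicate 1 or adult replicate 2 (edgeR adjusted p from 0.057 to 0.083). Mbp, Nrgn and Camk4, which respond in the young brain, were not called, with Mbp at 0.39 and a standard error of 0.37. Of the genes that the hormone represses in heart, Pln, the inhibitor of Atp2a2, was lower in neonates at 2.51 and 1.30 CPM against 10.35 and 12.95 CPM (log2 fold change -2.36). Myh7 had at most 9 counts in a library and was not tested.

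The genes whose profiles lay nearest to each member tested were found by the distance of centred log2 CPM over the 4 libraries, with the age difference setting most of it. Scarb2 and Slc45a4 lay nearest to Thrb (distances of 0.021 and 0.040 log2 units), Kpna5 and Usp22 to Hr (0.021 and 0.042) and Ankrd46 and Slc6a8 to Thra (0.014 and 0.017). Slc47a1 and Il18rap lay nearest to Thrsp but farther off (0.21 and 0.34), and Sh2d4a and Samd4a to Slco1c1 (0.13 and 0.14). Over 4 libraries many genes share such a profile, and nothing further is drawn from these names.

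**Figure D4:**
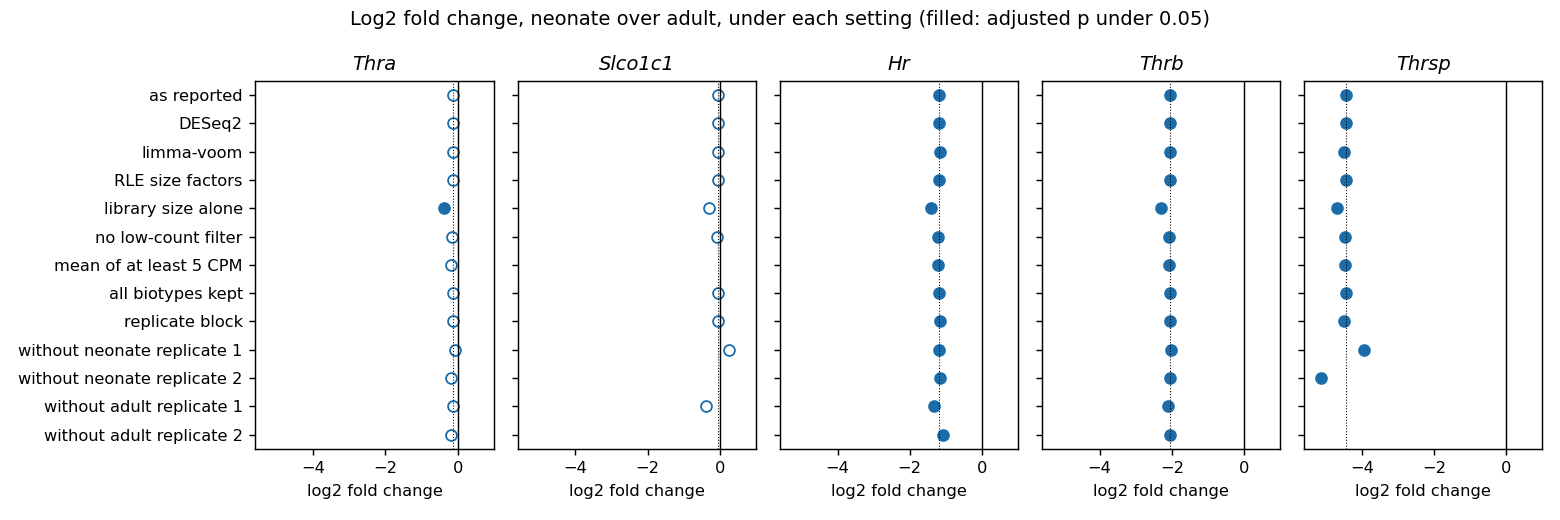
Log2 fold change of neonates over adults (horizontal axis) for the 5 members tested, as reported and under each other setting (rows), filled where the adjusted p was under 0.05. Thrb, Hr and Thrsp stay filled in every row where they have a value, Thra is filled only with library size alone, and Slco1c1 is never filled.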

How the data were processed

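Poly A+ RNA of pooled CBs was sequenced in 2 libraries per age. Deposited values were estimated counts of each gene, which the authors made with STAR and Salmon 1.5.2 on Rnor_6.0 and summed from transcripts to genes, without normalization or filtering. Reads that fit several transcripts are shared by such estimates, and a gene's count grows with its length. The methods give more than one Ensembl release for the gene models.

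Counts were rounded. Genes annotated as other than protein-coding in a RefSeq table of GRCr8 were removed by symbol (636 of 32883), 13665 genes had no annotation there and stayed in, and a gene was tested if 2 or more libraries reached 1 CPM. Ages were compared in edgeR 4.0.16 in R 4.3.3 (TMM, quasi-likelihood test, no covariate, Benjamini-Hochberg adjustment over all 13843 genes). Standard errors are the log2 fold change over the square root of the F statistic. The procedure was first run on simulated counts in which far fewer genes changed than were called here. That run therefore does not bear on the choice of scaling. Alternatives were DESeq2 1.42.0, limma-voom 3.58.1, RLE factors, library size alone, other filters, a replicate block and each library left out. Ratios and lists were computed in Python 3.11.15 with pandas 2.3.3 and numpy 2.4.6. Named genes were all members, pathway genes called with at least 2-fold or otherwise up to 4 called per direction and list, Nr1d1, listed markers, and the 2 nearest profiles per member tested. A few genes counted in the lists are not reported here by name. Other genes of the lists are named for contrast after their values were seen. Members and lists were chosen with earlier results of these data known. The labels call the libraries biological replicates and name no litters, so p-values measure the spread between these pools, which may share litters.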

Additional observations from a re-analysis of the deposited data

How the results depend on the processing

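Few reads limit what can be said of the deiodinases and Slco1c1. Thrb, Hr and Thrsp kept their direction and their call under every alternative that gave a value, and Thrsp gave none without adult replicate 1 or adult replicate 2 because it then missed the filter. Slco1c1 gave none with a mean of at least 5 CPM, without neonate replicate 2 or without adult replicate 2, so its range below rests on the other 2 omissions.

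Scaled to library size alone, Thra was at -0.38 and called, 2587 genes were called higher in neonates in place of 4325 and 5997 lower in place of 4300 (30.1% higher in place of 50.1%), and 8 pathway genes were called higher in place of 14. Slco1c1 turned to 0.26 without neonate replicate 1, with no call.

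With 1 library left out, log2 fold changes ran from -0.19 to -0.069 for Thra, -2.10 to -2.03 for Thrb, -1.32 to -1.09 for Hr, -5.14 to -3.95 for Thrsp and -0.39 to 0.26 for Slco1c1. The Thrb to Thra shift ran from 1.87 to 1.96. A lone library was assumed to vary like the other age. Of 116 values under alternatives, 112 were classed as the same, 2 counts of called genes moved, 1 gene gained a call and 1 reversed its direction. The 116 include counts of called genes, which cannot reverse.

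Replicate numbers gave no sign of pairing (correlation of deviations -0.015 between same-numbered libraries). With a replicate block, 4542 genes were higher and 4551 lower, and Thrb was at -2.05, Hr at -1.18, Thrsp at -4.48 and Thra at -0.14, with no call changed among the members.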
